A study of Sus scrofa with 18 samples.

Results

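The genes described here encode the nuclear-encoded subunits of the mitochondrial respiratory chain and of ATP synthase, measured on Affymetrix porcine arrays in the endometrium of Meishan and Yorkshire gilts. They were chosen by a rule on names that uses no measured value, although earlier results of these data were known when it was set. A probe set was taken where the platform annotation gives it a single gene symbol that starts with NDUF, UQCR, SDHA, SDHB, SDHC, SDHD, COX4, COX5, COX6, COX7, COX8 or ATP5, or is CYC1 or CYCS. This gave 83 of the 24123 probe sets, for 65 genes. Of the 83, 40 belong to complex I, 6 to complex II, 2 to complex III, 8 to complex IV and 17 to complex V, and 1 is cytochrome c. The remaining 9 carry a name of the family but no subunit, namely the assembly factors NDUFAF1, NDUFAF2, NDUFAF3 and SDHAF2, and ATP5S, a factor linked to ATP synthase. NDUFA4 was kept with complex I by its name, although its protein is known as a part of complex IV.

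The respiratory chain sits in the inner mitochondrial membrane and moves electrons from NADH (complex I) and succinate (complex II) through ubiquinone, complex III and cytochrome c to oxygen at complex IV. The proton gradient made on the way drives ATP synthase, which is complex V. The subunits come from nuclear genes and, for a small set at the core of the membrane parts, from mitochondrial DNA, so that the nuclear subunits are made elsewhere in the cell, imported and assembled with the help of dedicated factors. In the pregnant uterus these complexes supply energy for secretion, transport and tissue growth. None of the 26 symbols searched for subunits encoded by mitochondrial DNA (each gene with and without its MT- prefix) was that of a probe set, so the values below cover nuclear genes only.

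The 18 arrays fall into 6 groups of 3, formed by breed and by gestational day 15, 26 or 50 (GD15, GD26 and GD50). The gilts carried no other treatment, and those of each breed had been mated to boars of the same breed. An array held RNA from 1 attachment site of each of 2 gilts, mixed in equal amounts, and each group drew its 3 arrays from 1 pair of gilts. A p-value therefore measures only the spread between pools of sites, and a difference between animals cannot be told apart from one between days or breeds. GD15 lies within attachment of the conceptus, GD26 just after it, and GD50 in the period of the established placenta. The changes compared were those from GD15 to GD26 and from GD26 to GD50 in each breed, the difference between breeds at GD15, and the difference between breeds in each of the 2 changes.

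Of the 83 probe sets, 70 (62 genes) had an intensity above 100 on at least 6 of the 18 arrays and were tested, 65 of them above 100 on every array. The 13 others were 1 probe set each of ATP5I, ATP5J, ATP5L, COX7C, COX8H, NDUFAF2, NDUFS6, NDUFV3 and SDHAF2, and 2 each of NDUFAF1 and NDUFV2. Among these 13, 11 stayed under 100 on every array. Complex I kept 36 probe sets, complex II 6, complex III 2 (UQCR10 and UQCRB), complex IV 6 and complex V 14. No probe set carries the single symbol COX4I1, COX4I2, COX5A, COX6A2, COX6B1, COX6B2, COX7A2L, COX8A, COX8C, NDUFA4L2, CYC1, UQCRC1 or UQCRFS1. Levels are given as deposited log2 intensities. Each probe set is compared only with itself across arrays, since the levels of different probe sets are not on a common scale.

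In scale, 6 arrays, those of Yorkshire at GD26 and GD50, differed from the other 12. Their median over the 9320 probe sets tested was 7.78 to 8.13, against 8.31 to 8.40 on the others, they had 7131 to 8036 probe sets above 100 against 8373 to 8743, and their spiked hybridization controls averaged 11.4 to 13.5 against 9.68 to 11.1. For this reason each result is given on both scales, as deposited and with each array centred on its own median over the tested probe sets. The words rose and fell are kept for probe sets whose adjusted p was under 0.05 (limma, Benjamini-Hochberg over all 9320 tested). Centring moved the median change of all 9320 probe sets from GD15 to GD26 in Yorkshire from -0.47 to -0.08 on the log2 scale, and in Meishan from -0.06 to -0.02. In bulk tissue, fewer cells of a type and less RNA per cell cannot be told apart.

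Some markers of other cell types also changed between GD15 and GD26. Of 12 listed trophoblast markers, 8 were on the array and 5 passed the filter (PLET1, DPPA5, PAG6, PPAG3 and GATA3). All 5 rose in both breeds. Their mean level was 2.31 to 2.43 on the GD15 arrays, the bottom of the scale, and 11.9 to 13.2 on the arrays of GD26 and GD50. They thus passed the filter through the later arrays alone, so that a rise from GD15 was nearly fixed in advance. The trophoblast regulator TFAP2C stayed under 100 on every array. Of 7 listed smooth muscle markers, 6 were on the array and 4 passed the filter, and MYLK stayed under 100 on every array. The 4 tested (ACTA2, CNN1, TAGLN and ACTG2) also rose in each breed over this interval. Their array means were 9.10 to 9.61 and then 10.3 to 10.8 in Meishan, and 8.40 to 8.95 and then 10.2 to 10.6 in Yorkshire. Over all 9320 probe sets tested, 23.8% rose and 27.1% fell in Meishan. In Yorkshire 20.3% rose and 44.9% fell (29.0% and 30.7% after centring). The counts of so few markers were not tested against these shares. Of 6 epithelial markers, 2 rose and 2 fell in Meishan, and 1 rose and 4 fell in Yorkshire (2 and 3 after centring). Of 4 tested stroma markers, 1 rose and 0 fell in Meishan, and 1 rose and 1 fell in Yorkshire (3 and 0 after centring). The stroma list held 6 genes, 5 of them on the array, and COL3A1 stayed under 100 on every array. The uterine secretory genes SPP1 and ACP5 rose in both breeds. The probe sets with the single symbol PGR or ESR1, both hormone receptors, stayed under 100 on every array. The authors, with another annotation of the probe sets, list ESR1 among genes with high expression at GD15 in both breeds. The platform annotation leaves 13826 probe sets without a symbol, so the low values here do not show that the receptors were absent. All 6 skeletal and heart muscle markers were under 100 throughout. The part of these shifts in the respiratory chain values from GD15 to GD26 was not tested.

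From GD15 to GD26 in Meishan, 12 of the 70 probe sets rose and 5 fell. Over all 9320 probe sets tested, 23.8% rose and 27.1% fell, so both shares among the respiratory chain probe sets, 17.1% and 7.14%, were below those of the whole array. After centring, 13 rose and 5 fell, against 25.4% and 25.5% of all. Without Meishan GD15 replicate 3 the count that fell was 10, against 2586 of all 9320. By complex, 5 of 14 probe sets of complex V rose and 0 fell, against 4 and 3 of 36 for complex I, 1 and 1 of 6 for complex II, 0 and 1 of 6 for complex IV, and 0 of 2 for complex III. The median change was 0.22 for complex V and between -0.14 and -0.04 for complexes I to IV, beside 0.03 for all 70 probe sets and -0.06 for the array.

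In Yorkshire over the same interval, 8 of the 70 rose and 29 fell as deposited, against 20.3% up and 44.9% down for all probe sets. After centring, 15 rose and 13 fell, against 29.0% and 30.7%, so the split of the calls turned from mostly lower to nearly even with the scaling. The direction of complex I, complex II and the whole set of 70 turned as well: their median changes were -0.32, -0.32 and -0.31 as deposited and 0.07, 0.07 and 0.09 after centring. Complexes III and IV stayed below 0 on both scales, at -0.76 and -0.57 as deposited and -0.37 and -0.18 centred. Complex V stayed above 0, at 0.05 and 0.45. As deposited, 2 probe sets of complex I rose and 14 fell, 5 of 6 of complex IV fell and 0 rose, both of complex III fell, and in complex V 4 rose and 3 fell. After centring the counts were 4 and 8 for complex I, 0 and 1 for complex IV, 0 and 1 for complex III, and 7 and 0 for complex V. With Yorkshire GD26 taken from its replicate 1 alone, the median change of all 9320 probe sets was -0.30 in place of -0.47. Cyclic loess scaling gave 14 that rose and 17 that fell, against 2857 and 2616 of all 9320.

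The median level over the probe sets of a complex was also taken on each array. For complex I it was 10.95 ± 0.12 (SD, n = 3 arrays) at GD15, 10.64 ± 0.06 at GD26 and 10.68 ± 0.06 at GD50 in Meishan, and 10.72 ± 0.15, 10.39 ± 0.10 and 10.25 ± 0.09 in Yorkshire. Complex II was at 10.00 ± 0.10, 9.90 ± 0.16 and 9.78 ± 0.12 in Meishan and at 10.12 ± 0.07, 9.95 ± 0.14 and 9.35 ± 0.29 in Yorkshire. Complex III had means of 11.65 to 11.75 in Meishan and was at 11.83 ± 0.02, 11.07 ± 0.09 and 11.42 ± 0.15 in Yorkshire. The 3 Yorkshire GD26 arrays of complex III thus lay under every other array on the deposited scale. Complex IV was at 13.13 ± 0.09, 12.94 ± 0.02 and 12.81 ± 0.14 in Meishan and at 12.95 ± 0.09, 12.41 ± 0.16 and 12.57 ± 0.21 in Yorkshire. For complex V the values were 12.31 ± 0.15, 12.44 ± 0.12 and 12.30 ± 0.07 in Meishan and 12.23 ± 0.06, 11.89 ± 0.09 and 11.97 ± 0.03 in Yorkshire. The Yorkshire median level of complex V was therefore lower at GD26 than at GD15, although the median of its probe sets' changes was 0.05. Likewise, the Meishan median level of complex I was lower at GD26, although the median of its probe sets' changes was -0.04 (0.004 centred). Such a level depends on which probe sets stand in the middle on an array, so it does not give the change of the single subunits. After centring, the Yorkshire levels of complex V went from 12.07 to 12.13 and 12.28, and those of complex I from 10.56 to 10.63 and 10.55.

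**Figure D1:**
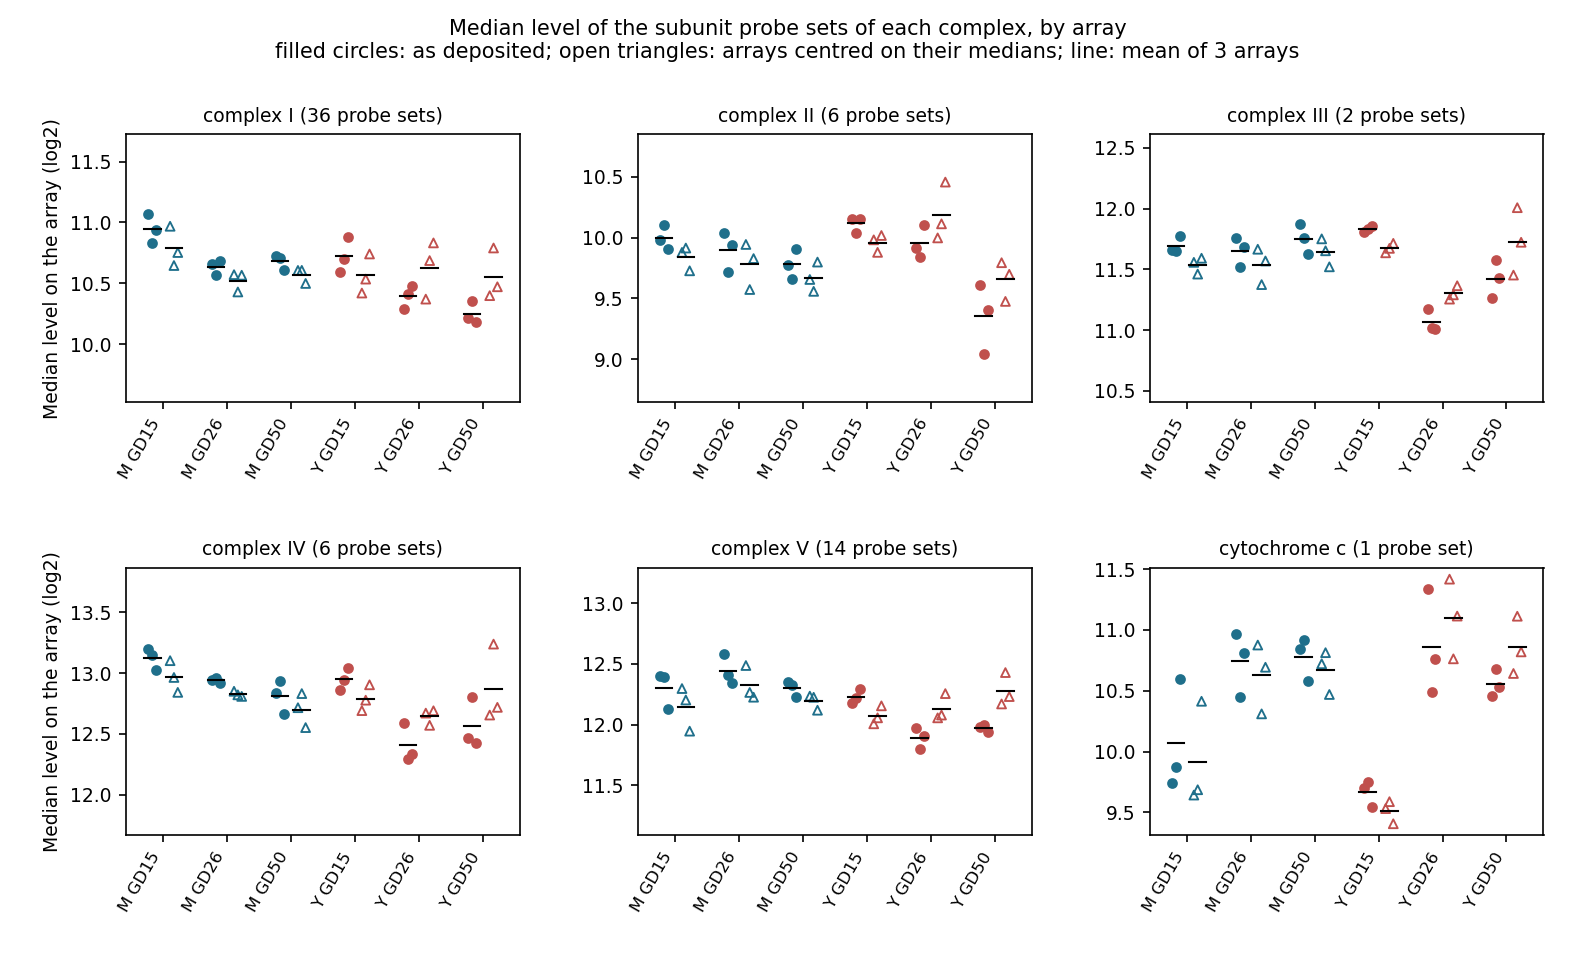
Median level of the subunit probe sets of each complex on every array (vertical axes, log2 intensity), for the 6 groups (M Meishan, Y Yorkshire). Filled circles are arrays as deposited, open triangles arrays centred on their medians, and lines the mean of 3 arrays. As deposited, the Yorkshire GD26 arrays of complexes III and IV lie below the GD15 arrays of the same breed, with means of 11.07 against 11.83 and 12.41 against 12.95.

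The probe sets called in both breeds formed a short list. As deposited, 6 rose in both. These were NDUFS1, CYCS, ATP5G1, ATP5O, 1 of the 2 SDHA probe sets and the dim ATP5L probe set described below. That ATP5L probe set was under 100 on every GD15 array. All 5 that fell in Meishan also fell in Yorkshire: 1 of the 2 NDUFA1 probe sets, NDUFA2, 1 of the 3 NDUFS3 probe sets, 1 of the 2 SDHB probe sets and COX7A1. In all, 24 of the 70 probe sets passed no test in any comparison on either scale, with changes of -0.35 to 0.38 in Meishan and -0.52 to 0.12 in Yorkshire over this interval. Of these, 16 were of complex I, which holds 36 of the 70. The same count was not taken over the whole array, so it is not read as a trait of these genes. Over the whole array, 13.9% of the probe sets rose in both breeds and 22.4% fell in both, against 8.57% and 7.14% of the 70. After centring 10 rose in both and 4 fell in both, where the array had 18.1% and 18%. The only probe set with opposite calls as deposited was the bright ATP5L probe set, and it was not called in Yorkshire after centring.

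**Figure D2:**
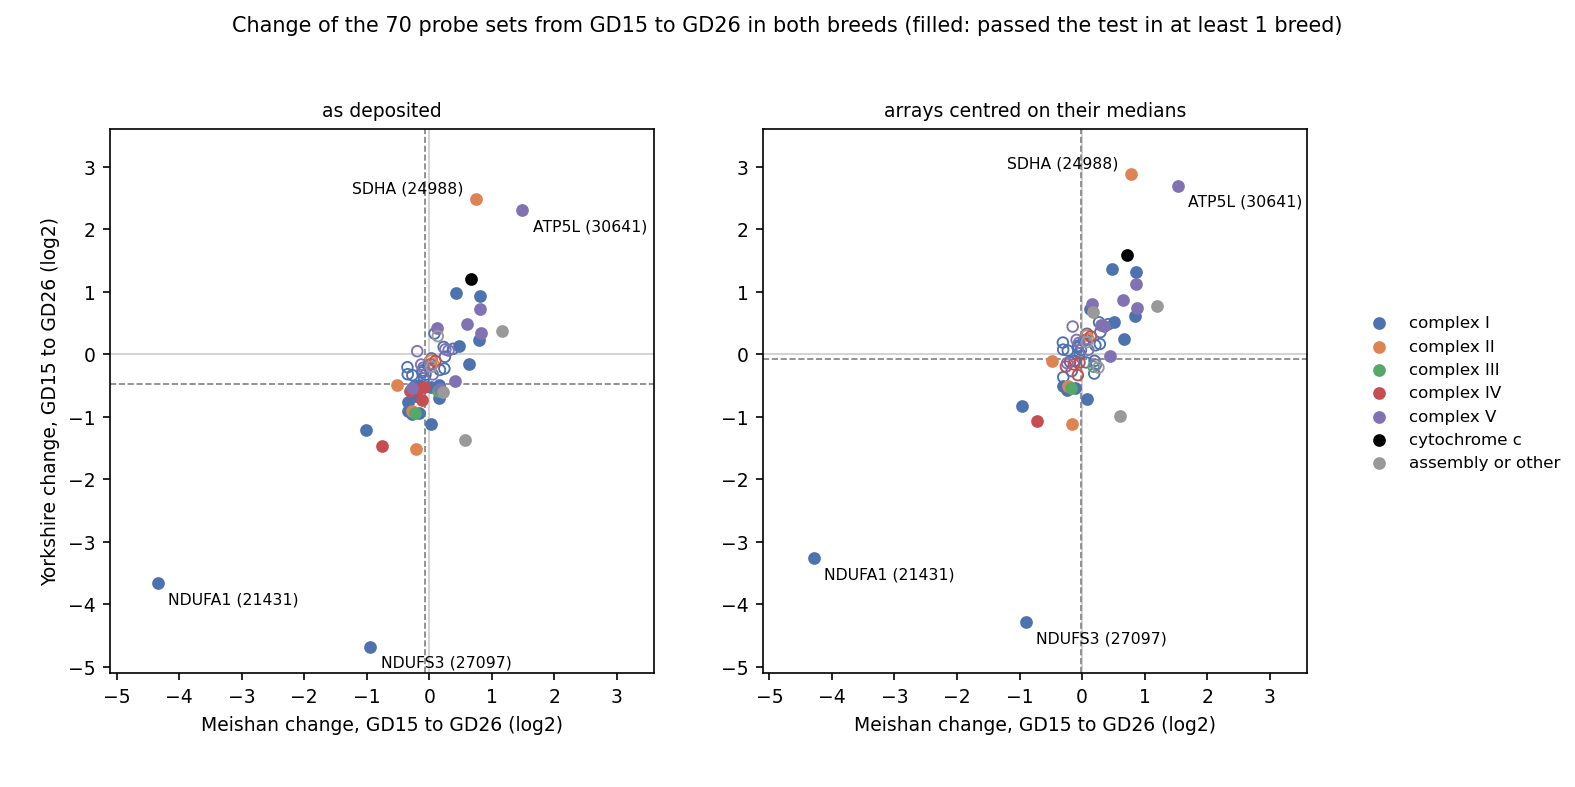
Change of each of the 70 probe sets from GD15 to GD26 in Meishan (horizontal) and Yorkshire (vertical), in log2 units, as deposited and after median centring. Filled points passed the test in at least 1 breed, colours give the complex, and dashed lines mark the median change of all probe sets tested. Most points lie within 1 log2 unit of 0 in both breeds, and the NDUFA1, NDUFS3, SDHA and ATP5L probe sets named in the plot, the only ones past 2 log2 units in a breed, lie farthest out.

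Complex I takes electrons from NADH. Its catalytic core, the part shared with bacteria, was measured here by 7 probe sets for 5 genes, and its accessory subunits by 29 probe sets for 27 genes. This split is textbook knowledge applied after the values had been seen, so it is given with counts and medians and no test of the split. In Meishan from GD15 to GD26, where 23.8% of all probe sets rose and 27.1% fell, 4 core probe sets rose and 1 fell, with a median change of 0.47, while 0 accessory probe sets rose and 2 fell, with a median of -0.11. In Yorkshire, where 20.3% of all rose and 44.9% fell as deposited, 2 core probe sets rose and 1 fell as deposited (3 and 1 after centring), and 0 accessory ones rose and 13 fell (1 and 7 after centring). The core medians were 0.13 as deposited and 0.52 centred, and the accessory medians were -0.38 and 0.01.

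NDUFS1, the largest core subunit, which carries iron-sulphur clusters in the NADH-oxidizing part, was measured at 9.86, 9.69 and 9.54 at GD15 in Meishan, 10.62, 10.52 and 10.38 at GD26, and 9.99, 10.14 and 10.02 at GD50. In Yorkshire it was at 9.62, 9.75 and 9.84, then 10.56, 10.76 and 10.66, then 10.15, 9.88 and 9.96. The arrays of GD26 thus lay above all those of the other days in each breed. It rose by 0.81 (SE 0.13, adjusted p = 0.00077) in Meishan and by 0.93 (SE 0.16, adjusted p = 0.000653) in Yorkshire, or 1.32 after centring. NDUFV1, the subunit that binds NADH, went from 9.53, 9.58 and 9.23 to 10.07, 10.07 and 9.61 in Meishan, a rise of 0.47 (SE 0.18, adjusted p = 0.0476) whose call was lost without any of the 3 GD15 arrays or without GD26 replicate 1 or 2 (adjusted p up to 0.146). In Yorkshire NDUFV1 differed by 0.13 as deposited (adjusted p = 0.504) and rose by 0.52 after centring (adjusted p = 0.0161). NDUFS7, next to the site where ubiquinone is reduced, went from 9.87, 9.78 and 9.17 to 10.31, 10.35 and 10.07 in Meishan, a rise of 0.64 (SE 0.20, adjusted p = 0.0242). This call was lost without GD15 replicate 3 or without GD26 replicate 1 or 2 (adjusted p up to 0.0755). The other core gene with a single tested probe set, NDUFV2, passed no test, and in Yorkshire it differed by -0.33 (SE 0.16, adjusted p = 0.0934) as deposited and 0.07 after centring.

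The 3 probe sets for NDUFS3, a core subunit of complex I, did not move together. Probe set Ssc.1309.1.S1_at stood at 9.83, 9.81 and 9.66 at GD15 and 10.73, 10.18 and 9.70 at GD26 in Meishan, where the groups overlap, and at 9.58, 9.60 and 9.71 and then 10.80, 10.41 and 10.59 in Yorkshire. It rose in Yorkshire by 0.97 (SE 0.19, adjusted p = 0.00157) and by 1.36 after centring. Probe set Ssc.1309.2.S1_a_at went from 7.05, 7.51 and 7.12 to 8.41, 8.10 and 7.57 in Meishan, a rise of 0.80 (SE 0.25, adjusted p = 0.0216) that was lost without GD15 replicate 1 or 3 or without GD26 replicate 1 or 2. In Yorkshire that probe set holds exactly the same value, 7.38, on 5 of the 9 arrays, and it was not called. Probe set Ssc.27097.1.A1_at moved the other way. It was at 7.54, 7.65 and 7.96 at GD15 in Meishan, at 6.47, 6.72 and 7.14 at GD26, and at 5.70, 5.58 and 4.96 at GD50, and in Yorkshire it went from 8.47, 8.78 and 8.24 to 4.44, 2.69 and 4.33 and then 3.27, 3.32 and 3.03. It fell by 0.94 (SE 0.23, adjusted p = 0.00769) in Meishan, a call lost with cyclic loess scaling (adjusted p = 0.0575). In Yorkshire the fitted change was -4.67 (SE 0.41, adjusted p = 1.17e-05). Since the 3 Yorkshire GD26 arrays were under an intensity of 100, the drop in that breed is at least 3.6-fold. This probe set passed the filter mainly through its GD15 arrays, so that a fall from GD15 was largely fixed in advance. The annotation gives all 3 probe sets the same symbol, and which of them reports the gene was not tested.

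Among the accessory subunits of complex I, the largest change was that of NDUFA1, a small membrane subunit needed for the assembly of the complex, in probe set Ssc.21431.3.A1_s_at. Its levels were 12.73, 12.20 and 12.29 at GD15, 8.45, 7.92 and 7.84 at GD26 and 9.13, 9.14 and 9.22 at GD50 in Meishan. In Yorkshire they were 11.43, 11.46 and 11.57, then 7.13, 8.23 and 8.11, then 8.36, 8.23 and 8.35. Every GD15 array was thus above every later one. It fell by 4.34 (SE 0.20, adjusted p = 1.59e-07), or 20.2-fold, in Meishan. In Yorkshire it fell by 3.66 (SE 0.27, adjusted p = 3.65e-06), or 12.6-fold, with a change of -3.27 after centring. The second NDUFA1 probe set, Ssc.21431.2.S1_at, does not share it. It was at 11.31, 11.33 and 11.16 at GD15 and 11.13, 11.06 and 11.14 at GD26 in Meishan with no call, and in Yorkshire it went from 11.24, 11.14 and 11.32 to 10.87, 10.67 and 10.65. The change of -0.50 (SE 0.15, adjusted p = 0.0177) became -0.11 (adjusted p = 0.619) after centring, and as deposited it was lost without Yorkshire GD15 replicate 1 or 3 or GD26 replicate 2 or 3. The suffix of the first probe set marks, on this kind of array, probes that match several transcripts. Whether all of its signal comes from NDUFA1 was not tested.

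NDUFA2, an accessory subunit of the NADH-oxidizing part, had 11.82, 11.91 and 11.86 at GD15, 10.88, 10.95 and 10.73 at GD26 and 11.35, 11.22 and 11.25 at GD50 in Meishan. In Yorkshire it had 11.86, 11.79 and 11.96, then 10.55, 10.65 and 10.76, then 10.79, 11.39 and 10.84. It fell by 1.01 (SE 0.12, adjusted p = 0.0001) in Meishan. In Yorkshire it fell by 1.22 (SE 0.19, adjusted p = 0.00045), with -0.82 (adjusted p = 0.013) after centring. NDUFA2 was thus the accessory subunit, beside the NDUFA1 probe set above, that fell in both breeds on both scales. NDUFA12, which sits where the NADH-oxidizing and ubiquinone-reducing parts meet, was not called in Meishan, at 11.43, 11.45 and 11.17 and then 11.45, 11.43 and 11.29. In Yorkshire it went from 12.13, 12.27 and 12.14 to 11.10, 11.13 and 10.99, and fell by 1.11 (SE 0.18, adjusted p = 0.000455), with -0.72 (adjusted p = 0.0129) after centring.

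The subunits of the distal membrane arm, named NDUFB, were measured by 11 probe sets for 10 genes. In Yorkshire 5 of the 11 fell as deposited, near the 44.9% of all probe sets, and 3 fell after centring, against 30.7%. The other 6, for NDUFB1, NDUFB2, NDUFB5, NDUFB10, NDUFB11 and the second NDUFB3 probe set, were not called, at -0.38 to -0.07 as deposited. In Meishan 0 of the 11 were called, with changes of -0.34 to 0.24, and the test of the difference between breeds passed for 4 of the 11 as deposited and for 0 after centring. NDUFB4 went from 12.04, 12.10 and 12.26 to 11.11, 11.24 and 11.35 in Yorkshire, and fell by 0.90 (SE 0.15, adjusted p = 0.000671), whereas it stood at 12.05, 12.06 and 11.82 and then 11.77, 11.60 and 11.53 in Meishan. NDUFB7 went from 10.27, 10.40 and 10.53 to 9.40, 9.41 and 9.58 in Yorkshire, and fell by 0.94 (SE 0.17, adjusted p = 0.000991). NDUFB3 (Ssc.20297.1.S1_at) changed there by -0.96 (SE 0.22, adjusted p = 0.0034), and NDUFC2, another membrane subunit, by -0.93 (SE 0.19, adjusted p = 0.00215). All 4 also passed after centring, at -0.51 for NDUFB4, -0.54 for NDUFB7, -0.57 for NDUFB3 and -0.54 for NDUFC2. NDUFB3 has a second probe set, Ssc.20297.1.S1_a_at, that was not called and differed by -0.25 (adjusted p = 0.201). NDUFB8, NDUFB9, NDUFS5, NDUFS6 and NDUFAB1 fell as deposited, with changes from -0.76 to -0.50, and none of these 5 was called after centring. Of the 13 accessory calls in Yorkshire, those of NDUFB9, NDUFAB1 and the second NDUFA1 probe set were lost on leaving out 1 array, namely GD15 replicate 1 or GD26 replicate 3 for NDUFB9 (adjusted p up to 0.0569) and GD15 replicate 2 or 3 or GD26 replicate 3 for NDUFAB1 (adjusted p up to 0.0724). NDUFA10 was the accessory probe set that rose in Yorkshire after centring. It stood at 9.21 or less on the GD15 arrays and at 9.44, 9.63 and 9.26 at GD26, with a difference of 0.33 (adjusted p = 0.123) as deposited and a rise of 0.73 (adjusted p = 0.00793) centred. NDUFA4, at 12.89, 13.04 and 13.29 and then 12.59, 12.79 and 12.83 in Yorkshire, passed no test.

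**Figure D3:**
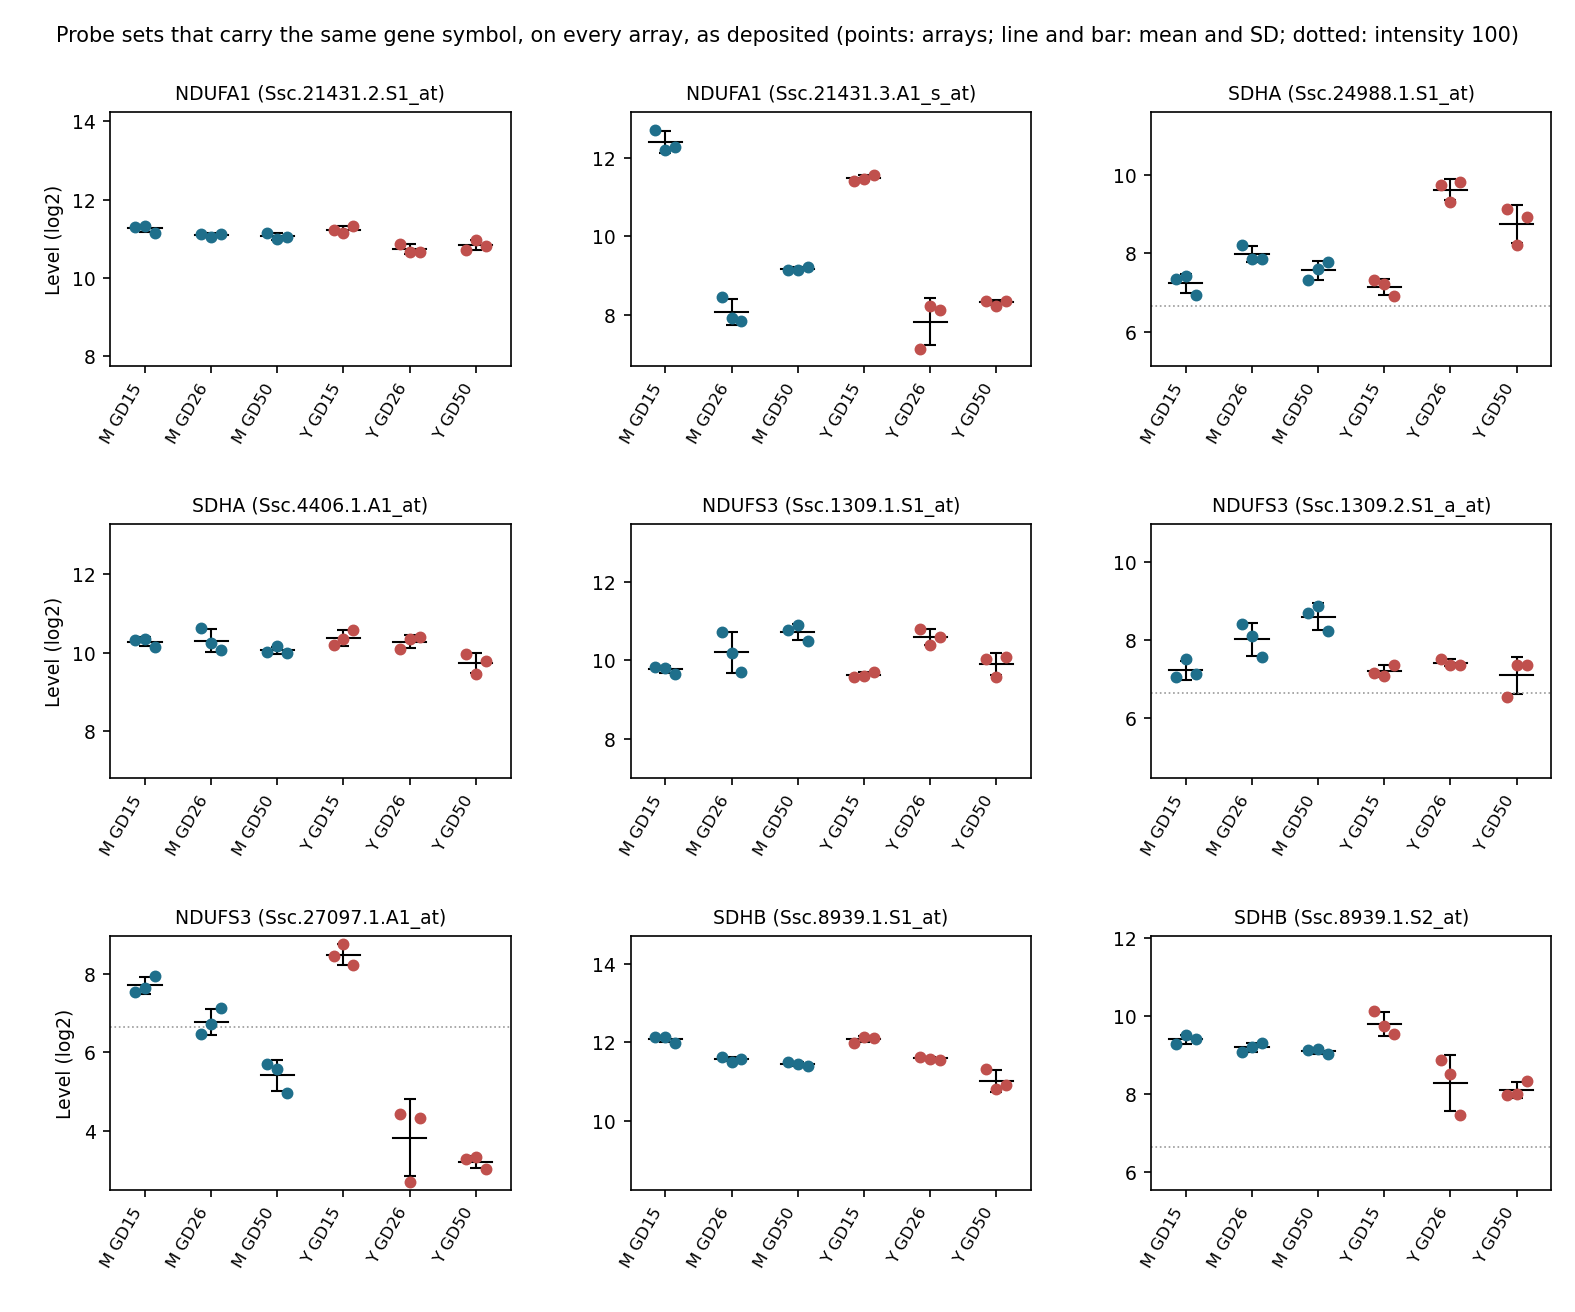
Levels, in log2 intensity as deposited, of the probe sets that share a symbol, for NDUFA1, SDHA, NDUFS3 and SDHB, on every array of the 6 groups (M Meishan, Y Yorkshire). Points are arrays, lines and bars the mean and SD of 3 arrays, and the dotted line an intensity of 100. Each panel spans the same number of log2 units. Between GD15 and GD26 in Meishan the NDUFA1 probe set 21431.3 fell by 4.34 while 21431.2 stayed between 11.06 and 11.33, and in Yorkshire the SDHA probe set 24988 rose by 2.48 while 4406 stayed between 10.08 and 10.58.

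Complex II oxidizes succinate and is also an enzyme of the tricarboxylic acid cycle. All of its subunits are nuclear-encoded, and all 4 genes were measured. SDHA, the flavoprotein that binds succinate, has a pair of probe sets with different calls. Probe set Ssc.24988.1.S1_at was at 7.34, 7.41 and 6.94, then 8.21, 7.86 and 7.86, then 7.31, 7.59 and 7.79 in Meishan, and at 7.31, 7.22 and 6.91, then 9.75, 9.32 and 9.82, then 9.13, 8.21 and 8.92 in Yorkshire. In both breeds the GD26 arrays lay above all GD15 arrays. It rose by 0.75 (SE 0.19, adjusted p = 0.00756) in Meishan and by 2.48 (SE 0.26, adjusted p = 3.5e-05), or 5.59-fold, in Yorkshire, where the rise was 2.88 centred. The brighter probe set, Ssc.4406.1.A1_at, had 10.33, 10.35 and 10.15 and then 10.62, 10.23 and 10.06 in Meishan, and 10.19, 10.34 and 10.58 and then 10.08, 10.36 and 10.39 in Yorkshire. Those groups overlap, and this probe set passed no test on either scale.

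SDHB, the iron-sulphur subunit, was lower at GD26 in both of its probe sets in Yorkshire. Ssc.8939.1.S1_at went from 12.14, 12.14 and 12.00 to 11.62, 11.51 and 11.59 in Meishan, and fell by 0.52 (SE 0.12, adjusted p = 0.00438). In Yorkshire it went from 11.99, 12.14 and 12.12 to 11.63, 11.58 and 11.56, and fell by 0.50 (SE 0.17, adjusted p = 0.0302). The Yorkshire call was lost after centring (-0.10, adjusted p = 0.612) and without any of the 3 GD15 arrays or GD26 replicate 2 or 3 (adjusted p up to 0.0936). Ssc.8939.1.S2_at was at 9.28, 9.50 and 9.41 and then 9.08, 9.20 and 9.30 in Meishan with no call, and went from 10.12, 9.74 and 9.52 to 8.87, 8.50 and 7.47 in Yorkshire, a change of -1.51 (SE 0.33, adjusted p = 0.00309), or -1.12 (adjusted p = 0.00814) centred. The Yorkshire GD26 arrays of that probe set spread over more than 1 log2 unit, yet all lie under those of GD15. The membrane anchor SDHC went from 9.67, 9.58 and 9.73 to 8.96, 8.99 and 8.32 in Yorkshire, and fell by 0.90 (SE 0.23, adjusted p = 0.00705), with -0.51 (adjusted p = 0.0448) centred. Its days overlapped in Meishan. The other anchor, SDHD, overlapped between the days in both breeds, at 11.47, 11.51 and 11.47 and then 11.81, 11.01 and 11.17 in Yorkshire, and passed no test.

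Complex III was measured by UQCR10, a small subunit, and UQCRB, which binds ubiquinone. UQCR10 was at 12.18, 11.97 and 11.78 and then 11.81, 11.77 and 11.68 in Meishan, and at 11.95, 12.00 and 11.98 and then 10.98, 11.06 and 11.08 in Yorkshire. The Yorkshire change was -0.94 (SE 0.16, adjusted p = 0.000855), or -0.54 (adjusted p = 0.0441) centred, while Meishan had no call. UQCRB went from 11.66, 11.67 and 11.72 to 11.37, 10.97 and 10.94 in Yorkshire, and fell by 0.59 (SE 0.17, adjusted p = 0.0114), which did not pass after centring (-0.20, adjusted p = 0.321). In Meishan its days overlapped.

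In complex IV, which hands the electrons to oxygen, the muscle-type isoform COX7A1 moved most. It was at 10.12, 10.10 and 9.82 at GD15, 8.82, 9.48 and 9.47 at GD26 and 9.75, 9.74 and 9.80 at GD50 in Meishan, and at 10.44, 10.33 and 10.24, then 8.63, 8.79 and 9.18, then 9.20, 9.75 and 9.16 in Yorkshire. It fell by 0.75 (SE 0.19, adjusted p = 0.00792) in Meishan. In Yorkshire it fell by 1.47 (SE 0.22, adjusted p = 0.000287), or 2.77-fold, with -1.07 (adjusted p = 0.00561) after centring. COX7A1 is the only complex IV probe set called in both breeds. The ubiquitous isoform COX7A2 stood at 12.66, 12.65 and 12.64 and then 12.82, 12.71 and 12.71 in Meishan, and at 12.21, 12.39 and 12.55 and then 12.42, 12.15 and 12.24 in Yorkshire, with no call (-0.11 in Yorkshire, adjusted p = 0.603). The 4 tested smooth muscle markers, of 7 listed, rose over the interval in which COX7A1 fell, and the skeletal and heart muscle markers were under 100 on every array. The part of either was not tested. COX5B, COX6A1, COX6C and COX7C fell in Yorkshire as deposited, and none of these 4 passed after centring. In Meishan they differed by -0.11, -0.17, -0.08 and -0.30 with no call. The difference between the breeds passed for COX5B as deposited (-0.62, adjusted p = 0.0173), and it did not pass for the other 3 (adjusted p of 0.0738 to 0.276) or for any of the 4 after centring. COX5B went from 12.66, 12.70 and 12.93 to 12.12, 12.00 and 11.98, and fell by 0.73 (SE 0.15, adjusted p = 0.00246). It differed by -0.33 (adjusted p = 0.117) after centring. COX6A1, the isoform of most tissues, changed by -0.56, COX6C by -0.53 and COX7C by -0.59. Leaving out 1 array lost the call of COX6C for any GD15 array or GD26 replicate 2 or 3 (adjusted p up to 0.0612), and that of COX7C without GD15 replicate 2 (adjusted p = 0.0516).

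Cytochrome c, encoded by CYCS, carries electrons between complexes III and IV and also acts in apoptosis. It was at 9.74, 9.87 and 10.60 at GD15 and 10.97, 10.45 and 10.81 at GD26 in Meishan, so that the days overlap, and at 9.70, 9.75 and 9.55 and then 11.34, 10.49 and 10.76 in Yorkshire, where they do not. It rose by 1.20 (SE 0.22, adjusted p = 0.00112), or 2.29-fold, in Yorkshire, and by 1.59 after centring. The Meishan rise of 0.67 (SE 0.23, adjusted p = 0.036) was lost without GD15 replicate 1 or 2 or without GD26 replicate 1 or 3 (adjusted p up to 0.117).

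Complex V makes ATP with a catalytic head, a rotating central stalk and membrane ring, and a peripheral stalk that holds the head in place. In Meishan the 5 probe sets of complex V that rose were ATP5O and ATP5J of the peripheral stalk, the ring gene ATP5G1 and both for ATP5L. ATP5O, which joins the stalk to the head, went from 12.77, 12.66 and 12.68 to 13.33, 13.30 and 13.30 in Meishan and from 12.44, 12.54 and 12.61 to 13.02, 13.03 and 12.96 in Yorkshire. The rises were 0.61 (SE 0.11, adjusted p = 0.0016) and 0.48 (SE 0.15, adjusted p = 0.0211), the latter 0.87 centred, and the Yorkshire call as deposited was lost without GD15 replicate 1 or 2 or GD26 replicate 2 (adjusted p up to 0.0795). ATP5J, another part of that stalk, went from 8.56, 8.34 and 8.63 to 9.31, 9.33 and 9.40 in Meishan, a rise of 0.84 (SE 0.16, adjusted p = 0.00207). In Yorkshire ATP5J differed by 0.34 (adjusted p = 0.153) as deposited and rose by 0.73 (adjusted p = 0.00363) centred. Of 2 further stalk genes, ATP5F1 was called only in Yorkshire after centring, at 0.47 (adjusted p = 0.0247), and ATP5H passed no test.

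The ring of complex V is built from a subunit that 3 genes encode, ATP5G1, ATP5G2 and ATP5G3, and the 3 were not called alike. ATP5G1 was at 11.40, 11.39 and 10.93, then 12.23, 12.06 and 11.89, then 12.10, 12.23 and 11.83 in Meishan, and at 10.86, 10.99 and 11.22, then 11.90, 11.59 and 11.76, then 11.75, 11.75 and 11.77 in Yorkshire. All GD26 and GD50 arrays were above all GD15 arrays of the same breed. It rose by 0.82 (SE 0.18, adjusted p = 0.00359) in Meishan and by 0.73 (SE 0.16, adjusted p = 0.00347) in Yorkshire, or 1.12 centred. ATP5G2 was at 11.41, 11.50 and 11.11 and then 11.59, 11.55 and 11.43 in Meishan with no call, and went from 11.65, 11.68 and 11.51 to 11.00, 11.16 and 11.00 in Yorkshire. The change of -0.56 (SE 0.15, adjusted p = 0.00848) was -0.17 (adjusted p = 0.391) after centring. ATP5G3 was at 12.88, 12.90 and 12.76 and then 13.24, 13.16 and 13.07 in Meishan, a difference of 0.31 (adjusted p = 0.062) that passed after centring, at 0.35 (adjusted p = 0.0479). In Yorkshire it differed by 0.06 as deposited and rose by 0.45 (adjusted p = 0.0336) centred.

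The catalytic head of complex V was measured by ATP5A1 and ATP5B. ATP5A1 was at 12.61, 12.97 and 12.84 and then 13.04, 12.82 and 12.93 in Meishan, which overlap, and went from 12.56, 12.66 and 12.64 to 13.17, 12.94 and 12.99 in Yorkshire. The Yorkshire rise was 0.42 (SE 0.16, adjusted p = 0.0443), or 0.81 (adjusted p = 0.000945) centred, and as deposited the call was lost without any 1 of the 6 arrays (adjusted p up to 0.127). ATP5B, the other subunit of the head, had 12.56, 12.52 and 12.57 and then 12.68, 12.34 and 12.24 in Meishan, and 12.46, 12.48 and 12.68 and then 12.44, 12.36 and 12.33 in Yorkshire, and passed no test. In the central stalk, ATP5D was not called either. ATP5E, beside it, fell in Yorkshire by 0.54 (SE 0.16, adjusted p = 0.0141) as deposited, lost without GD15 replicate 2 (adjusted p = 0.0518), and was at -0.14 (adjusted p = 0.549) centred.

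ATP5L, a membrane subunit at the interface of paired ATP synthases, has a bright and a dim tested probe set. The bright one, Ssc.2957.1.S1_at, went from 12.24, 12.31 and 12.09 to 12.66, 12.63 and 12.57 in Meishan, a rise of 0.41 (SE 0.12, adjusted p = 0.0151), which quantile normalization took to 0.33 (adjusted p = 0.0511). In Yorkshire it went from 12.06, 12.10 and 12.18 to 11.80, 11.61 and 11.66, and fell by 0.43 (SE 0.15, adjusted p = 0.034). This change was -0.03 (adjusted p = 0.885) centred, and its call was lost without any GD15 array or without GD26 replicate 2 or 3 (adjusted p up to 0.103). The dim one, Ssc.30641.1.S1_at, went from 5.37, 5.35 and 6.11 to 7.22, 7.10 and 6.98 in Meishan and from 4.95, 5.20 and 4.78 to 7.38, 7.09 and 7.38 in Yorkshire. Its GD15 arrays were all under 100. The rise was thus at least 1.37-fold in Meishan (adjusted p = 0.000567) and at least 1.55-fold in Yorkshire (adjusted p = 5.02e-05). The dim probe set passed the filter through later arrays alone, so that a rise from GD15 was nearly fixed in advance.

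The named factors outside the complexes gave few calls. ATP5S, probe set Ssc.25508.1.S1_at, went from 7.36, 7.45 and 7.41 to 8.62, 8.37 and 8.72 in Meishan, a rise of 1.16 (SE 0.14, adjusted p = 0.000112). In Yorkshire it spread from 7.45 to 8.56 at GD26 and was called only after centring (0.77, adjusted p = 0.018). Its other probe set, Ssc.30662.1.S1_at, fell in Yorkshire from 6.87, 6.85 and 6.64 to 6.47, 5.25 and 4.50, at least 1.1-fold (adjusted p = 0.0168), and the call was lost without GD26 replicate 3 (adjusted p = 0.0505). NDUFAF3, an assembly factor of complex I, fell in Yorkshire by 0.61 (SE 0.16, adjusted p = 0.00935) as deposited and was at -0.21 (adjusted p = 0.35) centred. SDHAF2, which helps attach the cofactor of SDHA, rose in Yorkshire after centring alone, by 0.68 (adjusted p = 0.0449), with overlapping groups.

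From GD26 to GD50 few probe sets were called. In Meishan 2 of the 70 rose and 3 fell, against 8.2% and 10.2% of all probe sets, and after centring 2 rose and 2 fell, against 8.25% and 10.0%. The risers were the first NDUFA1 probe set, by 1.09 (SE 0.20, adjusted p = 0.00468), and NDUFA2, by 0.42 (SE 0.12, adjusted p = 0.037). Both had fallen over the first interval, and their GD50 arrays stayed under all GD15 arrays. The NDUFA2 call was lost without any 1 of the 6 arrays (adjusted p up to 0.133), which left 1 riser in place of 2 without GD26 replicate 2 or 3 or any GD50 array. Those that fell were NDUFS3 in Ssc.27097.1.A1_at, at least 1.1-fold (adjusted p = 0.00382), ATP5S in Ssc.25508.1.S1_at, at -0.71 (SE 0.14, adjusted p = 0.00796), and NDUFS1, at -0.46 (SE 0.13, adjusted p = 0.042). The NDUFS1 call was lost after centring (adjusted p = 0.0581) and without any 1 of the 6 arrays (adjusted p up to 0.133). The NDUFS3 call did not remain where intensities under 100 were set to 100 (adjusted p = 0.458).

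In Yorkshire over the second interval, 0 of the 70 rose and 4 fell, against 5.72% and 7.85% of all probe sets, and after centring 0 rose and 5 fell, against 7.48% and 8.02%. The 4 were NDUFA10, NDUFS1, NDUFS3 in Ssc.1309.1.S1_at and the dim ATP5L probe set, of which the last 3 had risen over the first interval as deposited. NDUFA10 went from 9.44, 9.63 and 9.26 to 8.44, 8.55 and 8.84, and fell by 0.83 (SE 0.18, adjusted p = 0.0142). NDUFS1 fell by 0.67 (SE 0.16, adjusted p = 0.0223), and NDUFS3 went from 10.80, 10.41 and 10.59 to 10.05, 9.58 and 10.09, and fell by 0.69 (SE 0.19, adjusted p = 0.0411). The dim ATP5L probe set returned to 6.03, 5.19 and 6.12, at least 1.55-fold lower (adjusted p = 0.00521). These arrays were under 100, and the probe set passed the filter without them, so a fall was partly fixed in advance. The dimmer SDHA probe set differed by -0.87 (adjusted p = 0.0554) as deposited and fell by 0.81 (adjusted p = 0.0425) centred. Leaving out 1 array lost NDUFS1 for GD26 replicate 2 or 3 or GD50 replicate 2 or 3 (adjusted p up to 0.0655), and NDUFS3 for any GD26 array or GD50 replicate 1 or 2 (adjusted p up to 0.0899). The count that fell was 2 without GD26 replicate 3 or GD50 replicate 2, and the count that rose was 3 without GD26 replicate 1.

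At GD15 the breeds differed in few of these genes. By the test, Yorkshire was higher than Meishan in 1 of the 70 probe sets and lower in 1, against 4.92% and 4.87% of all probe sets, and after centring in 1 and 2, against 5.13% and 5.28%. The higher one was NDUFA12, where all 3 Yorkshire arrays (12.13 to 12.27) lay above all 3 Meishan arrays (11.17 to 11.45), a difference of 0.83 (SE 0.14, adjusted p = 0.00111). The lower one was the first NDUFA1 probe set, at -0.92 (SE 0.24, adjusted p = 0.0213), and that call was lost without Meishan replicate 1 or any Yorkshire array (adjusted p up to 0.1), which left 0. NDUFC2 was lower in Yorkshire after centring, at -0.47 (adjusted p = 0.0492) and did not pass as deposited (adjusted p = 0.0836).

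The change from GD15 to GD26 in Yorkshire minus that in Meishan passed the test above 0 in 1 of the 70 probe sets and below 0 in 18, against 8.7% and 26.8% of all probe sets, and its median over the 70 was -0.29. After centring 4 passed above 0 and 4 below, against 13.8% and 13.0%, with a median of 0.06. The Yorkshire GD26 arrays are among those that stood apart in scale, and that shift cannot be told apart from breed in the values as deposited. The probe set that passed above 0 was SDHA in Ssc.24988.1.S1_at, at 1.74 (SE 0.33, adjusted p = 0.00107) and 2.09 centred. Without Meishan GD26 replicate 1 or Yorkshire GD26 replicate 1 the count that passed above 0 was 2. Of the 18 called below 0, 4 kept their call after centring. These were NDUFS3 in Ssc.27097.1.A1_at, with a fitted difference of -3.73 (SE 0.50, adjusted p = 7.02e-05), NDUFA12, at -1.15 (SE 0.20, adjusted p = 0.000656) and -0.79 centred, SDHB in Ssc.8939.1.S2_at, at -1.31 (SE 0.37, adjusted p = 0.0127) and -0.96 centred, and ATP5S in Ssc.30662.1.S1_at, with a fitted difference of -1.95 (SE 0.54, adjusted p = 0.012). That NDUFS3 probe set passed the filter mainly through its GD15 arrays, and its Yorkshire GD26 arrays were under 100. The other 14 were 8 more of complex I, UQCRB, UQCR10, COX5B, ATP5G2, the bright ATP5L probe set and NDUFAF3. Their differences lay between -0.86 and -0.55. After centring these 14 were at -0.50 to -0.19, still below 0 but not called. The count called below 0 was 11 with quantile normalization and 3 with cyclic loess, against 1486 and 1010 of all 9320 probe sets. With Yorkshire GD26 from replicate 1 alone, the median difference over all probe sets was -0.25 in place of -0.41. Of the 14, NDUFB3, NDUFC2 and UQCRB each lost their call without any of 9 of the 12 arrays in turn (adjusted p up to 0.0994), NDUFB4 and NDUFS7 without any of 6 (up to 0.0881), NDUFB9 without any of 5 and NDUFAB1 without any of 4 (up to 0.0686). Each of the 12 arrays ended at least 1 of these 7 calls when it was left out. After centring ATP5A1 (0.65, adjusted p = 0.0132), the dim ATP5L probe set (1.17, adjusted p = 0.0166) and NDUFS3 in Ssc.1309.1.S1_at (0.89, adjusted p = 0.035) passed above 0 beside SDHA.

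For the change from GD26 to GD50, Yorkshire minus Meishan passed the test above 0 in 0 of the 70 and below 0 in 1, against 2.05% and 2.32% of all, with a median of 0.08 over the 70. After centring it passed in 0 and 2, against 2.88% and 2.4%. The one called below 0 was NDUFS3 in Ssc.1309.1.S1_at, at -1.21 (SE 0.31, adjusted p = 0.0346). Its GD50 arrays were at 10.78, 10.90 and 10.50 in Meishan and 10.05, 9.58 and 10.09 in Yorkshire. This call was lost without 7 of the 12 arrays, which were replicates 2 and 3 of Meishan GD26, 1 and 2 of Meishan GD50, 1 and 3 of Yorkshire GD26 and 2 of Yorkshire GD50. The count called below 0 was 0 without Meishan GD26 replicate 2 or 3, Meishan GD50 replicate 1 or 2, Yorkshire GD26 replicate 3 or Yorkshire GD50 replicate 2, 2 without replicate 3 of either GD50 group, and 3 without Yorkshire GD50 replicate 1, and the count called above 0 was 1 without Yorkshire GD26 replicate 1. After centring the dim ATP5L probe set was also called below 0, at -1.23 (adjusted p = 0.0426).

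Other genes of the mitochondrion are given here for comparison, with the brightest probe set standing for each gene. Their counts from GD15 to GD26 stand beside 23.8% up and 27.1% down for all probe sets in Meishan, and in Yorkshire 20.3% and 44.9% as deposited and 29.0% and 30.7% centred. Of 16 genes of pyruvate oxidation and the tricarboxylic acid cycle, 8 rose and 3 fell (50.0% and 18.8%) from GD15 to GD26 in Meishan, with a median change of 0.43, and 7 rose and 3 fell (43.8% and 18.8%) in Yorkshire, with a median of 0.57 (10 and 1, with 0.96, centred). CS, the enzyme that opens the cycle, rose by 1.54 (SE 0.17) in Meishan and 1.97 (SE 0.17) in Yorkshire. PDHA1, of the pyruvate dehydrogenase complex, rose by 1.41 and 1.65, and its partner PDHB by 1.30 and 1.08. FH, which makes malate from fumarate, changed by -0.58 and -1.58. OGDH, of the oxoglutarate dehydrogenase complex, fell by 1.35 in Meishan, and in Yorkshire it differed by 0.52 as deposited (adjusted p = 0.177) and rose by 0.91 centred (adjusted p = 0.0158). From GD26 to GD50, 0 of the 16 were called in Meishan, where 8.2% of all probe sets rose and 10.2% fell, and 0 rose and 5 fell in Yorkshire (4 centred), against 5.72% and 7.85%.

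Of the 7 inner membrane carriers and porins, which bring ADP and phosphate to ATP synthase, 3 rose and 0 fell in Meishan from GD15 to GD26, and 3 rose and 2 fell in Yorkshire (5 and 1 centred). The ADP/ATP carrier SLC25A5 rose by 1.00 in Meishan and 1.01 in Yorkshire, the phosphate carrier SLC25A3 by 0.63 and 0.58, and the porin VDAC1 by 0.39 and 0.50. The muscle-type ADP/ATP carrier SLC25A4 fell by 1.54 in Yorkshire and differed by -0.10 in Meishan (adjusted p = 0.59). Of 8 further assembly factors, 1 rose and 1 fell in Meishan, and 1 rose and 5 fell in Yorkshire (1 and 3 centred). BCS1L, which acts in the assembly of complex III, fell in Yorkshire from a mean level of 6.70 to 4.62. ATPAF1, an assembly factor of ATP synthase, fell there from 7.56 to 5.86. Both ended under an intensity of 100 and BCS1L started near it, so the size of these drops is uncertain. Of 55 mitochondrial ribosomal protein genes, 13 rose (23.6%, near the share of all probe sets) and 4 fell (7.27%, below it) in Meishan. In Yorkshire 2 rose (3.64%) and 25 fell (45.5%, near the share of all), and 2 and 14 did after centring. Among 12 listed regulators of mitochondrial biogenesis, 5 were on the array and 2 passed the filter. TFAM, which binds and maintains mitochondrial DNA, fell by 1.07 (SE 0.23, adjusted p = 0.00299) in Yorkshire, or -0.68 centred. It differed by -0.05 in Meishan. YY1, the other regulator tested, fell by 0.47 in Yorkshire as deposited alone.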

How the data were processed

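Endometrial RNA was hybridized to Affymetrix porcine arrays, 3 for each of 6 groups. The values used are log2 intensities deposited by the authors, who, per the labels and methods, processed the arrays with RMA and GCRMA (versions not given in the sources used here). They ran from 2.18 to 16.05, and arrays of a group correlated at 0.948 to 0.991. The number of arrays limits the precision. Genes were named from the platform annotation, which gives 10099 probe sets 1 symbol, 198 several and 13826 none. The 4 probe sets whose several symbols include a gene of the family were left out. After 124 control probe sets, those without an intensity above 100 on at least 6 arrays were removed, leaving 9320.

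Changes were tested with limma 3.58.1 in R 4.3.3, with 1 fit per breed for the days and 1 fit over the 6 groups for breed contrasts, and adjusted by Benjamini-Hochberg over the 9320 at 0.05. The scripts were tested on simulated data. A fold against a group under an intensity of 100 was computed against 100 and given as "at least". Tables were handled in Python 3.11.15 and figures drawn with matplotlib 3.10.9. Alternatives covered scaling, filters, the replicate number as a block, the fit and the call, and each array left out in turn. Named genes were, by rule, isoform pairs, SDH subunits, electron carriers, listed catalytic subunits and, in each comparison, the called members with the most extreme changes, up to 3 in each direction. Other called members were added after their values were seen. The members and lists were chosen with earlier results of these data known. Sequences, and the raw intensities, were not used here.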

Additional observations from a re-analysis of the deposited data

Results flagged for a closer look

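For 19 probe sets the change from GD15 to GD26 differed between the breeds by the test of that difference (limma, adjusted over all probe sets), and for 1 the change from GD26 to GD50 did. In log2 units, Yorkshire minus Meishan, the first interval gave 1.74 for SDHA (Ssc.24988.1.S1_at) and values below 0 for the other 18. Of complex I these were -3.73 for NDUFS3 (Ssc.27097.1.A1_at, a fitted value, since the Yorkshire GD26 arrays were under an intensity of 100), -1.15 for NDUFA12, -0.86 for NDUFS6, -0.79 for NDUFS7, -0.78 for NDUFB7, -0.68 for both NDUFB3 and NDUFC2, -0.66 for NDUFAB1, -0.56 for NDUFB4 and -0.55 for NDUFB9. The others were -1.31 for SDHB (Ssc.8939.1.S2_at), -0.74 for UQCRB, -0.71 for UQCR10, -0.62 for COX5B, -0.84 for ATP5L (Ssc.2957.1.S1_at), -0.74 for ATP5G2, -0.83 for NDUFAF3 and -1.95 for ATP5S (Ssc.30662.1.S1_at, also a fitted value). The second interval gave -1.21 for NDUFS3 (Ssc.1309.1.S1_at).

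After median centring the difference passed for SDHA (2.09), NDUFS3 in the first interval (-3.38) and in the second (-1.15), NDUFA12 (-0.79), SDHB (-0.96) and ATP5S (-1.60), and for none of the other 14. With Yorkshire GD26 from replicate 1 alone, SDHB (-0.72, adjusted p = 0.0754) and ATP5S (-0.89, adjusted p = 0.185) did not pass. ATP5S did not pass either where intensities under 100 were set to 100 (adjusted p = 0.246). The Yorkshire GD26 and GD50 arrays differ from the rest in scale, which cannot be told apart from breed and day here.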

How the results depend on the processing

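Over the alternatives that kept every array, 50 of 1589 values of named probe sets changed sign, 17 of them with median centring, and 0 of the 50 were called on either side. The split of the Yorkshire calls and the median change of the 70 turned with centring, as given above. Counts are of the 70 probe sets whose test passed, rose and fell, or above and below 0 for contrasts of breeds. For median centring the shares over all probe sets are given above. Median centring gave 15 and 13 for Yorkshire from GD15 to GD26, 2 below 0 for the breeds at GD15, 4 and 4 for the breed difference of the first change, and 2 below 0 for that of the second. Quantile normalization gave 2 below 0 at GD15, 2 and 11 for the first difference and 2 below for the second. Over all 9320 it gave 502 below 0 at GD15, 1115 and 1486 for the first difference and 219 below for the second. Cyclic loess was chosen after seeing the data. It gave 14 and 17 for Yorkshire in the first interval, 3 and 3 for the first difference and 2 below 0 for the second. Over all 9320 these counts were 2857 and 2616, 1371 and 1010, and 247. Yorkshire GD26 from replicate 1 alone was likewise chosen after seeing the data, because replicates 2 and 3 stood apart in their hybridization controls. It gave a median change over all 9320 probe sets in Yorkshire of -0.30 in the first interval and -0.23 in the second. The median of the first difference was then -0.25. The lone array was assumed to vary like the other groups. Fitting all probe sets gave 11 that fell in Meishan in the first interval and 1 and 7 in Yorkshire in the second. It gave 1 above and 2 below 0 for the second difference. Over all 9320 these counts were 2490, 552 and 732, and 220 and 222. Setting intensities under 100 to 100 gave 10 that fell in Meishan in the first interval and 1 and 7 in Yorkshire in the second. It gave 2 above 0 at GD15. Over all 9320 these counts were 2514, 566 and 707, and 616. One fit over the 6 groups gave 1 riser in Meishan and 3 and 9 in Yorkshire in the second interval, against 608, 876 and 1266 of all 9320. With 1 probe set a gene, 3 fell in Meishan in the first interval and 1 rose in the second. None was below 0 at GD15 or above 0 in the first difference. Over the 8414 probe sets then tested these counts were 2329, 701, 397 and 629. A stricter call (Bonferroni and a 2-fold change) left 0 that rose and 1 that fell in Meishan and 0 and 2 in Yorkshire in the first interval, 0 of each in Meishan and 0 that fell in Yorkshire in the second, 0 above and 0 below 0 at GD15, 0 and 1 in the first difference, and 0 below in the second. Over all 9320 the stricter call left 350 and 206 in Meishan and 454 and 400 in Yorkshire in the first interval. In the second it left 47 and 39 in Meishan and 39 that fell in Yorkshire. For the breeds it left 51 and 71 at GD15, 134 and 86 in the first difference and 15 below in the second. The cause of the moves between settings was not tested.

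Leaving out each array in turn gave 8 to 12 that rose and 5 to 10 that fell in Meishan in the first interval, 6 to 7 and 22 to 32 in Yorkshire, 1 to 2 and 2 to 2 in Meishan in the second, 0 to 3 and 2 to 5 in Yorkshire, 1 to 1 and 0 to 1 for the breeds at GD15, 1 to 2 and 12 to 20 for the first difference, and 0 to 1 and 0 to 3 for the second. Over all 9320, 2090 to 2586 fell in Meishan and 3510 to 4457 in Yorkshire in the first interval. For the first difference 1985 to 3169 were below 0. Of the 85 calls as deposited, 57 remained without each array in turn. The replicate number shared by the groups gave no clear pairing of the arrays. Within a breed, 18 same-numbered pairs deviated with correlations of -0.136 to 0.328, 7 of them over 0.1. The 36 other-numbered pairs had -0.333 to 0.222, with 8 over 0.1. In 13 of 36 comparisons an array was placed best with its own number. Whether the numbers mark a pairing cannot be decided from so few pairs. As a replicate block the number gave 1 riser in Meishan in the second interval in place of 2. The background correction could not be varied without the raw intensities.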

Other observations

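Several probe sets hold the same deposited value on more than 1 array of a breed. Examples are ATP5I, with 9.15 on 4 of 9 Meishan arrays, and NDUFS3 (Ssc.1309.2.S1_a_at), with 7.38 on 5 of 9 Yorkshire arrays. Brighter probe sets did so as well, such as NDUFB2, with 11.36 on 2 of 9 Meishan arrays. The origin of such equal values was not tested.

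The brighter NDUFS3 probe set (Ssc.1309.1.S1_at) was at 10.78, 10.90 and 10.50 at GD50 in Meishan, where 1 GD26 array, at 10.73, lay among them, while in Yorkshire its highest arrays were those of GD26, at 10.80, 10.41 and 10.59.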
